A study of Homo sapiens with 8 samples.

Results

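The γ-globin genes *HBG1* and *HBG2* lie side by side in the β-globin locus, and the long-range DNA interactions of the interval that holds them (chr11:5268301-5281587, hg19, 13.287 kb) are described here in WT and BCL11A knockout (KO) cells. An interaction is a pair of 42-bp ends that the authors listed as joined. A pair was a member when the midpoint of an end lay in this interval, called the *HBG* interval, and the other end lay anywhere in the locus window (chr11:5222301-5323175). Mirrored and repeated lines were collapsed to distinct pairs over all 4 lists of a library. There were 214 members among 2966 distinct WT pairs and 218 among 2310 distinct BCL11A KO pairs. Of the pairs with both ends in the locus window, 2338 in WT and 1815 in BCL11A KO, members made up 9.15% and 12.0%. No pair of the *HBG* interval left the window, although 628 WT and 495 BCL11A KO pairs had an end outside it.

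CAPTURE-3C-seq joins neighbouring pieces of chromatin by ligation, pulls down chosen bait regions with a biotinylated, catalytically inactive Cas9 and sgRNAs, and sequences the ligated fragments. Both groups are HUDEP-2 cells, a line of human erythroid progenitors made immortal, and both carry the tagged Cas9 and the sgRNAs. One group is wild-type (WT) and the other carries the genotype BCL11A knockout, and no treatment is given for either. The labels describe the expansion medium with SCF, EPO, dexamethasone and doxycycline, whereas the methods give 5 days of differentiation before collection. Whether the knockout is 1 clone is not given in the sources used here, and contact lists hold no measure of BCL11A itself that could check the label. Each list used here merges 3 biological replicates, and the single-replicate samples of the series were not analysed. Every test below therefore compares 2 libraries, 1 per genotype, covers counting error only and carries no replicate error. The lists give no read numbers, and whether 2 pairs come from separate molecules is unknown. The 4 bait regions were *HBB*, *HBG1*/*2*, the region upstream of *HBD* and the LCR.

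*HBG1* and *HBG2* encode the γ chains of fetal hemoglobin and arose by tandem duplication, which left them nearly identical in sequence. The locus control region (LCR), an array of DNase hypersensitive sites upstream of *HBE1*, is the enhancer that the globin genes of the locus share, and HS2 and HS3 are its strongest enhancer elements in classic reporter assays. BCL11A is a zinc-finger repressor that silences *HBG1*/*2* in adult erythroid cells and binds the motif TGACCA in their promoters.

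The near identity of the genes sets what can be seen of them, so this comes first. All genes of the locus are on the minus strand, and "upstream" means toward higher coordinates. On GRCh37, the same build as hg19, the canonical *HBG1* transcript (GENCODE ENSG00000213934) runs from 5269499 to 5271087 and that of *HBG2* (ENSG00000196565) from 5274418 to 5276011. Stretches of 42 bases, the length of an end, that occur more than once on chromosome 11 make the genes open to measurement only in part: 55.8% of the 42-base stretches of *HBG1* and 55.9% of those of *HBG2* are repeated, against 17.8% of the whole *HBG* interval. How reads with several places of alignment were treated is not given in the sources used here, but 0 ends in either library lay in a repeated stretch.

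Sequences are shown here because many listed ends of *HBG2* differ from *HBG1* by a single base. The end used most often in the *HBG* interval lies in an *HBG2* exon (chr11:5275593-5275634), with 7 WT and 13 BCL11A KO pairs. An end in the *HBG2* intron (chr11:5275452-5275493) had 5 and 9. Each is printed above its nearest copy in *HBG1*, on the plus strand, with the differing base in capitals:
HBG2 exon end: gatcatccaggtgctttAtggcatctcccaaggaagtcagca
HBG1 exon copy (chr11:5270669-5270710): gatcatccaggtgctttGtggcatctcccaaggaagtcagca
HBG2 intron end: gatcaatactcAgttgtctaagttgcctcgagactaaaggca
HBG1 intron copy (chr11:5270528-5270569): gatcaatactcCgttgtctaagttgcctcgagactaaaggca
Both ends start with GATC. Of the distinct ends of the *HBG* interval, 16 of 214 in WT (7.48%) and 16 of 208 in BCL11A KO (7.69%) start or finish with it, against 0.376% of all positions. The *HBG1* copies were ends of 0 pairs in both libraries. For ends of this kind the choice between the genes rests on 1 base, and whether reads of *HBG1* were placed at *HBG2* was not tested. Of the ends in the *HBG2* segment (below), 41 of 84 in WT and 43 of 84 in BCL11A KO were within 2 mismatches of another stretch of the interval. In the *HBG1* segment this held for 25 of 104 and 17 of 86, and upstream of *HBG2* for 0 of 53 and 0 of 92. Shares with the main regions are given below without such ends where that changes a call, a setting chosen after the data were seen. Contacts of single segments with single sites, and of segments with each other except the *HBG1*-*HBG2* pairs, were not recomputed in this way.

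The partners of the *HBG* interval changed places between the libraries. In WT, 108 of the 214 pairs ended upstream of *HBD* and 60 in the LCR. In BCL11A KO, 24 of the 218 ended upstream of *HBD* and 144 in the LCR. The number of pairs was nearly the same, with exact Poisson 95% intervals of 186 to 245 for WT and 190 to 249 for BCL11A KO. Over the whole locus, 64 of 158 shares with at least 5 pairs, most of them of an anchor's pairs in a partner region and the rest of pairs that use an anchor, differed between the libraries (40.5%; two-sided Fisher's exact test, with q, the p adjusted by Benjamini-Hochberg over all 158, under 0.05). For the *HBG* interval, 6 of 17 did. Among its 13 partner regions and sites, 5 did, with a higher share in BCL11A KO for the LCR and HS3 and a lower one for the *HBD* upstream region, its -3.5 kb site and *HBBP1*/*BGLT3*. The proportion was no larger than in the locus. Values given below as "exact q" are from this test.

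**Figure D1:**
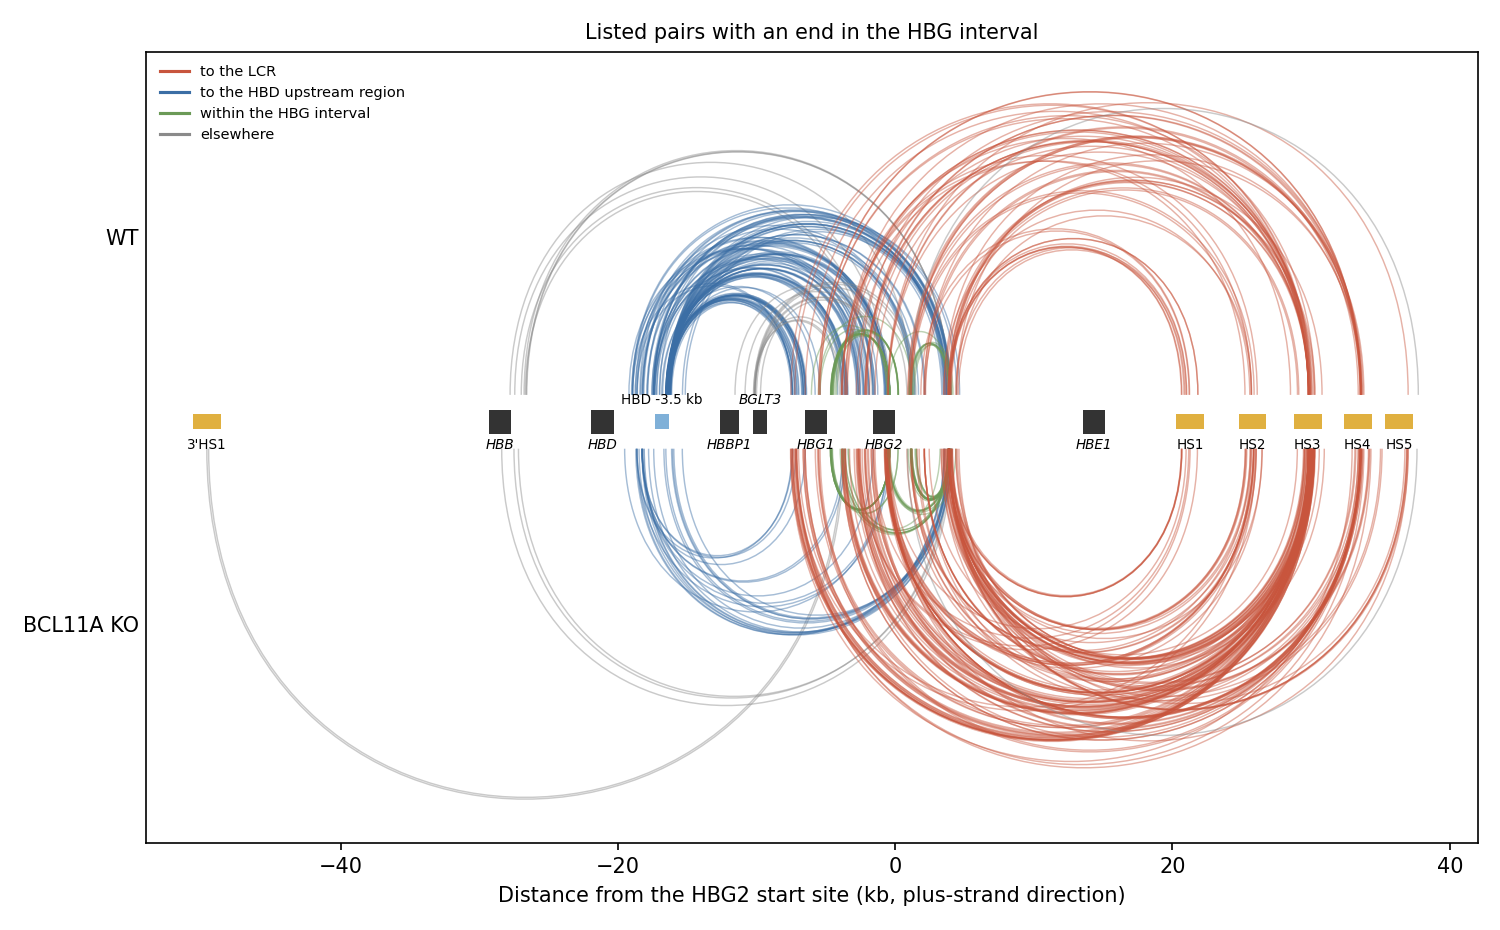
Every listed pair with an end in the HBG interval, drawn as an arc between its ends, for WT (above) and BCL11A KO (below). The x axis is the distance from the HBG2 start site in kb, black boxes are genes, yellow boxes are the DNase hypersensitive site windows and the blue box is the window 3.5 kb upstream of HBD; arc height grows with distance and has no other meaning. WT arcs run mostly to the region upstream of HBD (108 of 214) and BCL11A KO arcs mostly to the LCR (144 of 218).

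The LCR (chr11:5295275-5313574) received 28.0% of the pairs in WT (Wilson 95% interval 22.45 to 34.4) and 66.1% in BCL11A KO (59.5 to 72.0). The difference was 38.02 percentage points, with an interval of 28.9 to 46.2 (exact q = 3.02e-14). Seen from the LCR, the *HBG* interval held an end of 60 of its 860 WT pairs and of 144 of its 838 BCL11A KO pairs, or 6.98% and 17.2% (exact q = 8.31e-10). The LCR anchor thus had about as many pairs in both libraries, and a larger part of them reached the *HBG* interval in BCL11A KO.

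Over all lists, HS3 was the LCR site with the most pairs in both libraries. This did not hold in WT for the *HBG* list alone, with 5 pairs at HS3 and 6 at HS4, nor for *HBG2* (6 and 7) or the upstream segment (6 at HS3 and 8 at HS1). In its 2-kb window (chr11:5304775-5306775) lay the ends of 25 WT and 78 BCL11A KO pairs, 11.7% and 35.8% of the pairs of the *HBG* interval (exact q = 2.19e-08). Within it, the 0.5 kb from 5305775 to 5306274 held 22 of these pairs in WT and 65 in BCL11A KO, spread over 15 and 47 distinct ends. The HS3 end used most often had 8 WT and 12 BCL11A KO pairs. It is shown as the single most frequent partner end of the *HBG* interval, plus strand, with GATC in capitals:
HS3 end (chr11:5305798-5305839): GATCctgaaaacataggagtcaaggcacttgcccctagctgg
HS4 was reached by 15 WT and 30 BCL11A KO pairs (exact q = 0.0634), of which 14 and 22 lay in the 0.5 kb from 5309275 to 5309774. HS2 held 7 and 19 (exact q = 0.0587), HS5 1 and 6 (exact q = 0.214) and HS1 10 and 8 (exact q = 0.767). HS3 was the single LCR site whose share passed the threshold, a call that was lost in the *HBG* list alone (below). When internal pairs were left out of the total, HS2 (3.74% and 10.9%; exact q = 0.0343) and HS4 (8.02% and 17.2%; exact q = 0.0285) passed it too. HS1 took 4.67% of the WT pairs and 3.67% of the BCL11A KO pairs, with an interval of the difference that ran from -5.13 to 3.00 percentage points. Between the sites, the 2.5 kb from 5298275 to 5300774 held 0 pairs of either library.

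**Figure D2:**
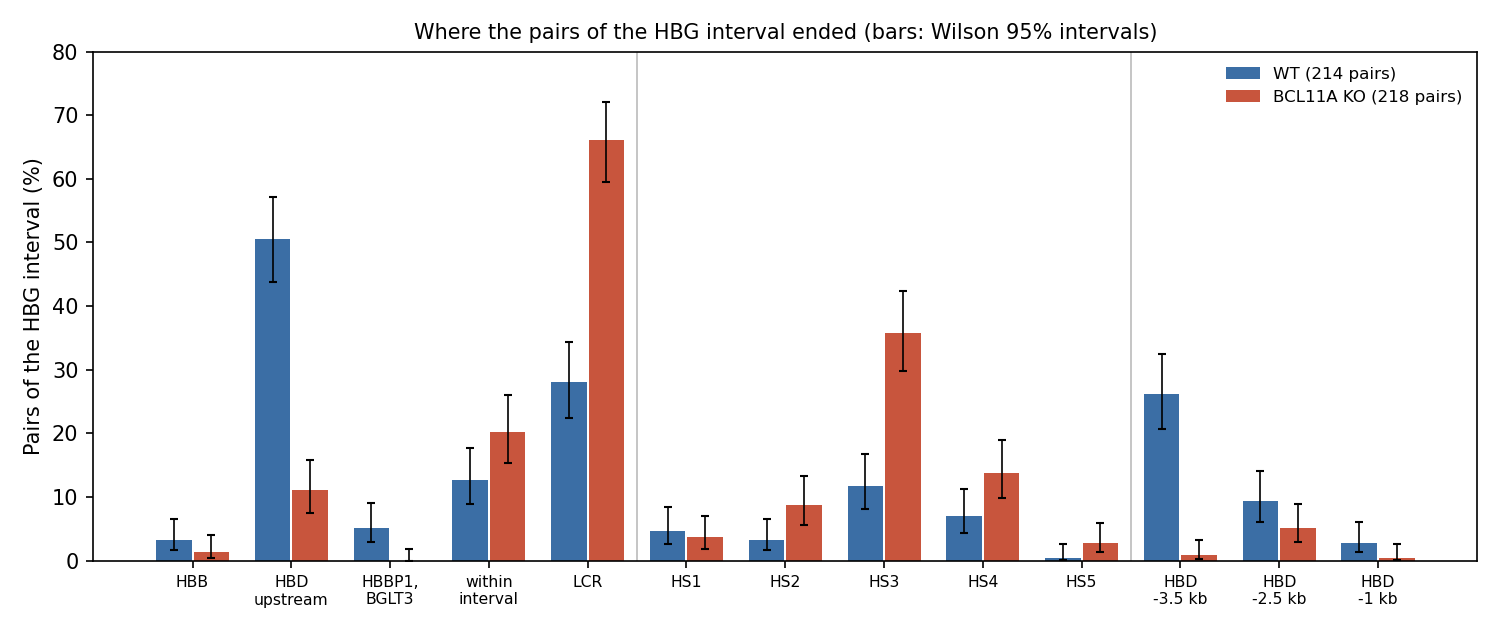
Share of the pairs of the HBG interval (y axis, percent of 214 WT and 218 BCL11A KO pairs) that ended in each region, with Wilson 95% intervals that cover counting error only. The left group of bars is larger regions, the middle the LCR hypersensitive sites and the right the windows upstream of HBD. The intervals of WT and BCL11A KO lie apart at HBD upstream, HBBP1/BGLT3, LCR, HS3 and HBD -3.5 kb.

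The region upstream of *HBD*, the gene of the minor adult δ chain, covers the 5.5 kb from its start site (chr11:5255713-5261212). It took 50.5% of the WT pairs (43.8 to 57.1) and 11.01% of the BCL11A KO pairs (7.51 to 15.9), 0.218 times the WT value (exact q = 3.37e-18). Seen from the *HBD* side, 108 of 1503 WT pairs and 24 of 935 BCL11A KO pairs ended in the *HBG* interval, 7.19% and 2.57% (exact q = 2.99e-06). In WT the partner ends were concentrated at 1 place: the 0.5 kb between 3.5 and 4.0 kb upstream of *HBD* (chr11:5259213-5259712) held 51 of the 108 pairs, over 38 distinct ends. The neighbouring 0.5 kb farther upstream held 17. In BCL11A KO these held 2 and 3. The 1-kb window at the -3.5 kb site (chr11:5258713-5259713) took 56 WT and 2 BCL11A KO pairs (26.2% and 0.917%; exact q = 2.04e-15). The call depends on the width of the window. With 0.5 kb, which leaves out most of the dense stretch, 4 and 1 pairs were left and no difference was detectable (exact q = 0.336), and with 2 kb there were 85 and 7 (exact q = 1.12e-20).

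Closer to *HBD* neither site window passed the threshold. The window at the -2.5 kb site took 20 WT and 11 BCL11A KO pairs (9.35% and 5.05%; exact q = 0.18), and that at -1 kb 6 and 1 (exact q = 0.135). Between 1.5 and 2.5 kb from the *HBD* start, both libraries listed 15 pairs, over 13 distinct ends in WT and 8 in BCL11A KO. On either side of it WT had more, 12 pairs against 2 between 2.5 and 3 kb and 6 against 0 between 1 and 1.5 kb. The pairs between 1.5 and 2.5 kb were 15 of the 24 pairs of the *HBD* upstream region in BCL11A KO. The end upstream of *HBD* that was used most often in BCL11A KO had 2 WT and 5 BCL11A KO pairs, and is shown, plus strand with GATC in capitals, as an example of this near part of the region:
HBD end, 2.051 kb upstream (chr11:5257743-5257784): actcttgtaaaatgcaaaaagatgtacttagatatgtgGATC

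The genes between the γ-globin genes and *HBD* are the pseudogene *HBBP1* and the noncoding RNA gene *BGLT3*. Their region (chr11:5261213-5268300) was joined by 11 pairs in WT, 8 from the *HBG2* segment and 3 from the spacer upstream of *HBG1*, and 0 in BCL11A KO (5.14% and 0%; exact q = 0.00152). At 0 pairs, the floor of 3 pairs is a share of 1.38% in BCL11A KO and the upper Wilson limit 1.73%. All 11 were in the list of the *HBG* bait alone. As shares of the pairs of the *HBBP1*/*BGLT3* region itself, 11 of 175 and 0 of 73, they did not pass the threshold (exact q = 0.0819). Without the ends within 2 mismatches of another stretch, 5 and 0 pairs were left, which did not pass the threshold (exact q = 0.0626). *HBB*, the adult β-globin gene, was a partner of 7 WT and 3 BCL11A KO pairs (exact q = 0.324). The *HBE1* region (embryonic ε-globin), which lies next to the *HBG* interval, had 0 in both libraries, as did the *HBD* gene. The window of 3'HS1, the hypersensitive site at the other end of the locus, had 0 WT and 2 BCL11A KO pairs, both from the spacer upstream of *HBG1*, a count under the floor of 3 that was not tested.

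The interval was split into an *HBG1* segment (chr11:5268301-5274417, the gene, its flank and the spacer up to *HBG2*), an *HBG2* segment (chr11:5274418-5279336) and an upstream segment (chr11:5279337-5281587). A pair between segments counts in both. *HBG1* had an end of 104 WT and 86 BCL11A KO pairs, *HBG2* of 84 and 84, and the upstream segment of 53 and 92. The upstream segment alone held a different share of the members in the 2 libraries, 24.8% and 42.2% (exact q = 0.000682), a call that was lost when pairs of 0.5-kb bins were counted once each (31 of 113 and 39 of 99; exact q = 0.236) and over the pairs leaving the interval (24.1% and 35.1%; exact q = 0.0663). For *HBG1* the share was 48.6% and 39.4% (exact q = 0.135) and for *HBG2* 39.3% and 38.5% (exact q = 0.99). Per kb of uniquely alignable sequence, the 3 segments were used almost alike in WT, with 20.8, 22.5 and 24.3 pairs. In BCL11A KO the values were 17.2, 22.5 and 42.1.

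The *HBG1* segment holds much spacer, with 16 WT and 8 BCL11A KO ends in the gene itself and 18 and 13 in the 1 kb upstream of its start. Its pairs with the LCR made up 23 of 104 WT and 58 of 86 BCL11A KO pairs (22.1% and 67.4%; exact q = 2.71e-09), and those with the *HBD* upstream region 57 and 6 (54.8% and 6.98%; exact q = 7.97e-12). At HS3 it had 13 and 42 pairs (exact q = 4.02e-07), and at the *HBD* -3.5 kb site 36 and 0 (exact q = 2.25e-10). *HBG2* moved the same way: 18 and 42 of 84 pairs with the LCR (21.4% and 50.0%; exact q = 0.000797) and 28 and 4 with the *HBD* upstream region (33.3% and 4.76%; exact q = 1.4e-05). It had 6 and 18 pairs at HS3 (exact q = 0.0356) and 11 and 0 at the *HBD* -3.5 kb site (exact q = 0.00259). Without ends within 2 mismatches of another stretch, the LCR call was lost for *HBG2*, with 12 of 40 WT and 20 of 41 BCL11A KO pairs (exact q = 0.223), whereas that of *HBG1* held (19 of 75 and 51 of 68; exact q = 2.33e-08). Both *HBG1* calls rested on the wider segment: in a 2-kb window at its start site it had 4 of 26 WT and 5 of 18 BCL11A KO pairs with the LCR (exact q = 0.581), and 3 and 0 with the *HBD* upstream region, too few to test. In such a window *HBG2* kept its calls, with 6 of 47 and 25 of 49 pairs for the LCR (exact q = 0.00037) and 14 and 3 for the *HBD* upstream region (exact q = 0.0103). Ends within 2 mismatches of another stretch were kept in these windows. Whether the contrast of the genes holds there without them was not tested. In the *HBG* list alone neither gene passed the threshold for the LCR, with 5 of 40 and 10 of 34 pairs for *HBG1* (exact q = 0.181) and 12 of 65 and 20 of 61 for *HBG2* (exact q = 0.161).

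The upstream segment lies beyond the promoter of *HBG2*. With the LCR it had 19 of 53 WT and 44 of 92 BCL11A KO pairs (35.8% and 47.8%), a difference short of the threshold over all its pairs (interval -4.74 to 27.3 percentage points; exact q = 0.265) but past it over the pairs that leave the *HBG* interval (42.2% and 72.1%; exact q = 0.00923). Without the pairs found only in the *HBD* upstream list the direction turned, with 63.3% and 56.4% (exact q = 0.833). With the *HBD* upstream region it had 23 and 14 pairs (43.4% and 15.2%; exact q = 0.00124, but 0.146 with 0.5-kb bin pairs), and at the *HBD* -3.5 kb site 9 and 2 (exact q = 0.00625). Of all pairs in the locus window, those between the upstream segment and the *HBD* upstream region made up 0.984% and 0.771% (exact q = 0.61). HS1 was the one LCR site with more upstream-segment pairs in WT, 8 against 4 (exact q = 0.0707), and HS5 had 0 and 5 (exact q = 0.261). In all, 5 of 9 tested partners passed for *HBG1*, 6 of 10 for *HBG2* and 2 of 12 for the upstream segment, beside the 40.5% of the locus.

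**Figure D3:**
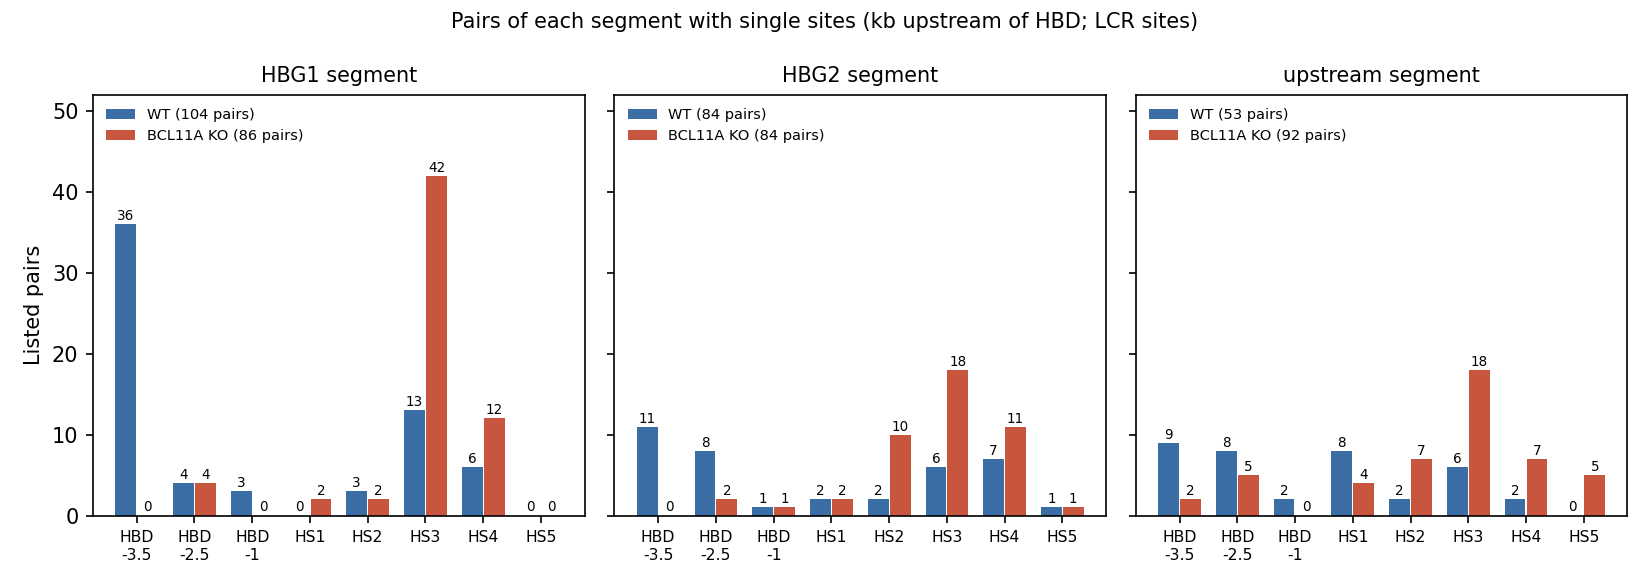
Number of listed pairs (y axis) that join each segment of the HBG interval to the windows 3.5, 2.5 and 1 kb upstream of HBD and to HS1 to HS5, in WT and BCL11A KO. HBG1 has 36 and 0 pairs with the HBD -3.5 kb window and 13 and 42 with HS3; HBG2 and the upstream segment both have 6 and 18 pairs with HS3.

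Whether the segments changed by different amounts was tested directly, by comparing the WT and BCL11A KO counts of 2 segments. Over the locus, 43 of 90 such comparisons had an adjusted p under 0.05 (47.8%). The number of pairs with the LCR in BCL11A KO was 2.52 times that in WT for *HBG1*, 2.33 times for *HBG2* and 2.32 times for the upstream segment, and no difference between these ratios passed the threshold (exact q = 0.916 or above). Pairs with the *HBD* upstream region were in BCL11A KO 0.105 times the WT number for *HBG1*, 0.143 times for *HBG2* and 0.609 times for the upstream segment. *HBG1* and the upstream segment differed (exact q = 0.00422), *HBG2* and the upstream segment did not pass the threshold (exact q = 0.0523, but 0.0229 with the highest score only) and neither did *HBG1* and *HBG2* (exact q = 0.809). When pairs of 0.5-kb bins were counted once each, *HBG1* and the upstream segment no longer differed past the threshold.

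Inside 1 library, segments were compared by the share of their leaving pairs that ended in the LCR or the *HBD* upstream region. Leaving pairs are those that leave the *HBG* interval or, for segments outside it, the segment itself. Over the locus, 119 of 180 such comparisons passed (66.1%). In WT, the *HBD* upstream region took 57 of 85 leaving pairs of *HBG1*, 28 of 57 of *HBG2* and 23 of 45 of the upstream segment (67.1%, 49.1% and 51.1%), and no comparison of these passed the threshold (exact q = 0.0547 for *HBG1* against *HBG2*, which passed without near copies, exact q = 0.0414). In BCL11A KO, the LCR took 58 of 66, 42 of 47 and 44 of 61 (87.9%, 89.4% and 72.1%). *HBG2* and the upstream segment differed (exact q = 0.048), a call that was lost with 0.5-kb bins, with 2-kb windows at the start sites and without near copies, and *HBG1* and the upstream segment did not pass the threshold (exact q = 0.0619, but 0.0303 with the highest score only).

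Along the interval, ends gathered at a few places. The 1 kb from 5279301 to 5280300, nearly all of it in the upstream segment, was the fullest with 47 WT and 88 BCL11A KO pairs. Next came the kb from 5275301 to 5276300, over the start of *HBG2*, with 41 and 43, although only 32.9% of its 42-base stretches are unique. The kb from 5271301 to 5272300, just upstream of *HBG1*, had 27 and 24. In the fullest kb, pairs within the *HBG* interval numbered 8 for WT and 30 for BCL11A KO, those with the LCR 15 and 41, and those with the *HBD* upstream region 21 and 14. No end of the upstream segment had more than 3 pairs.

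**Figure D4:**
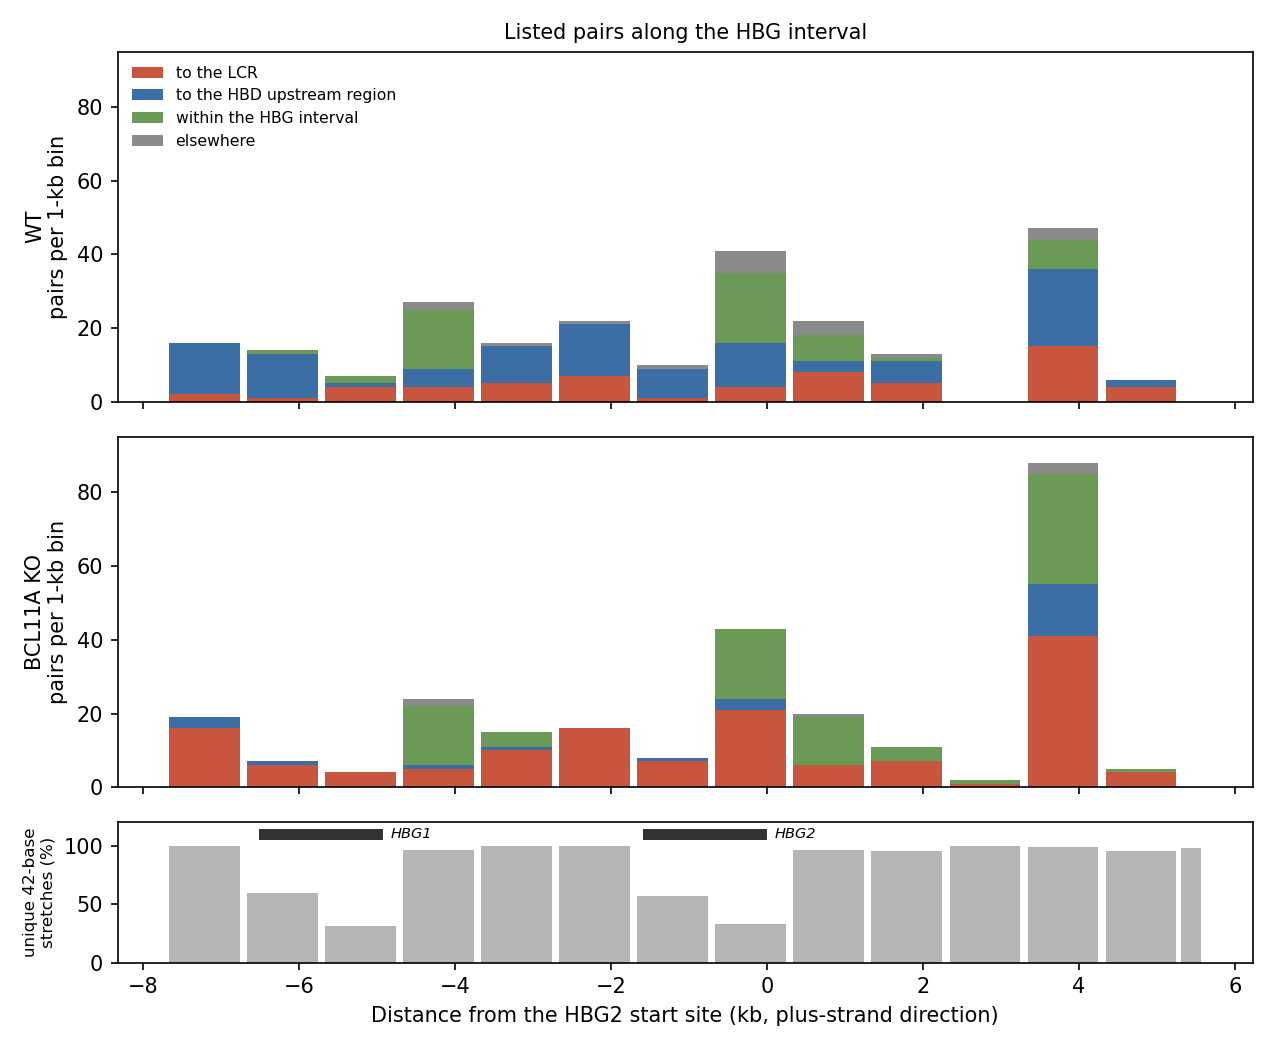
Listed pairs per 1-kb bin along the HBG interval (y axes of the upper panels, WT and BCL11A KO), stacked by partner, against distance from the HBG2 start site in kb; the lowest panel gives the percent of 42-base stretches that occur once on chromosome 11, with the genes as black bars. The most frequent partner is the HBD upstream region (blue) in 7 of the 12 bins with pairs in WT and the LCR (red) in 10 of 13 in BCL11A KO, and the bin centred 3.79 kb upstream of HBG2 rises from 47 to 88 pairs.

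Pairs with both ends inside the *HBG* interval numbered 27 in WT and 44 in BCL11A KO (12.6% and 20.2%; exact q = 0.0833). All were in the list of the *HBG* bait, and over the pairs of that list the shares were 31.4% and 53.7%, which passed the threshold (exact q = 0.0188), as they did without near copies (6.37% and 15.5%; exact q = 0.0345). With 0.5-kb bin pairs the difference shrank to 2.01 points (7.08% and 9.09%; exact q = 0.858), and without the pairs found only in the *HBD* upstream list to 1.96 points (20.1% and 22.1%; exact q = 0.851). The internal pairs lay at median distances of 4.23 and 4.26 kb. None lay within 1 segment. *HBG2* and the upstream segment were joined by 8 WT and 24 BCL11A KO pairs (9.52% and 28.6% of the *HBG2* pairs; exact q = 0.00849). *HBG1* and the upstream segment were joined by 0 and 7 (0% and 8.14% of the *HBG1* pairs; exact q = 0.00973). Taken over the pairs of the upstream segment, the same counts were short of the threshold (exact q = 0.247 and 0.103).

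Direct *HBG1*-*HBG2* pairs numbered 19 for WT and 13 for BCL11A KO, 8.88% and 5.96% of the members (interval of the difference -8.1 to 2.14 percentage points; exact q = 0.401). The *HBG1* end of 16 of the 19 WT pairs and of all 13 BCL11A KO pairs lay upstream of its start site, at a median of 0.353 and 0.289 kb. In 12 and 10 pairs the *HBG2* end lay in the gene, and 7 and 9 of these used the *HBG2* exon end printed above. The same pairs depend most on telling the genes apart: 16 of 19 in WT and 11 of 13 in BCL11A KO had an end within 2 mismatches of another stretch of the interval, and 3 and 2 pairs were left without them. Listed distances between *HBG1* and *HBG2* ends began at 3.93 kb in WT and 4.16 kb in BCL11A KO. With such an end set at its nearest copy, the pairs would span 0.046 to 1.83 kb in WT and 0.201 to 0.767 kb in BCL11A KO, shorter than any member listed (shortest 2.66 and 2.3 kb). In the whole locus 735 WT and 756 BCL11A KO pairs spanned under 1 kb, but none of these was in the list of the *HBG* bait, which holds all *HBG1*-*HBG2* pairs. Which placement is right was not tested.

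**Figure D5:**
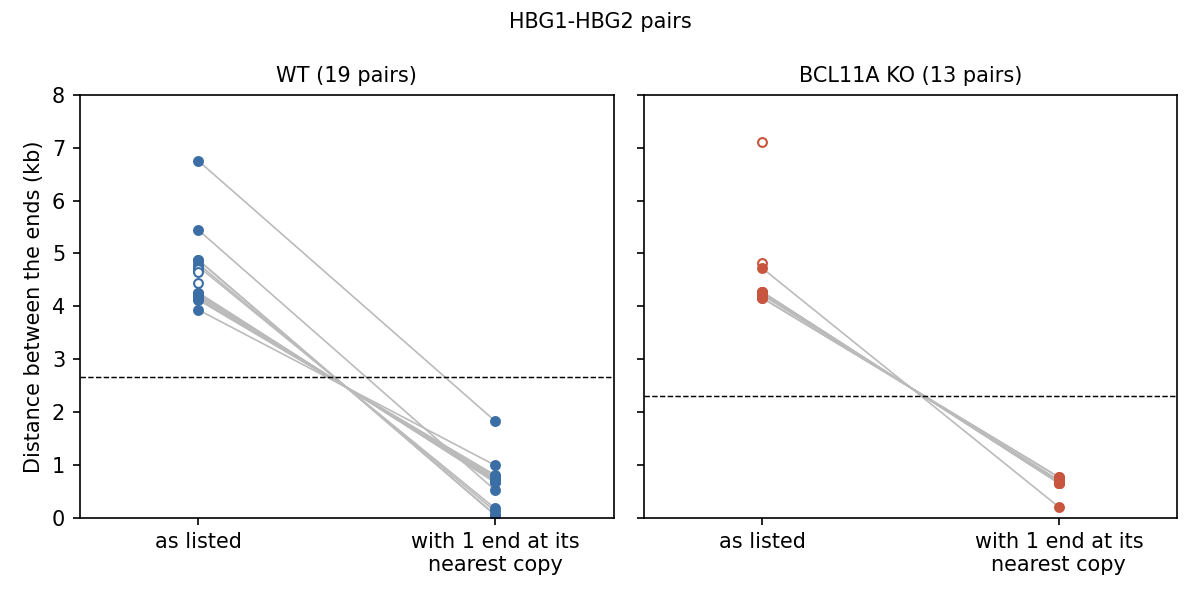
Distance between the ends (y axis, kb) of each HBG1-HBG2 pair as listed and with 1 end set at its nearest copy in the interval, for the pairs with an end within 2 mismatches of that copy (filled points and lines); open points have no such end, and the dashed line marks the shortest distance of any member. All 16 pairs in WT and all 11 in BCL11A KO that could be moved fall below the dashed line.

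Most contacts of the *HBG* interval were captured from the other end. The list of the *HBG* bait held 86 WT and 82 BCL11A KO members, while 106 and 24 were in that of the *HBD* upstream bait and 58 and 143 in that of the LCR bait, with 42 and 34 in more than 1 list. Of the pairs with the LCR, the LCR list held 58 of 60 for WT and 143 of 144 for BCL11A KO, and the *HBG* list 17 and 30. The *HBG* list alone gave the same directions with smaller differences: 17 of 86 and 30 of 82 pairs with the LCR (exact q = 0.0453) and 28 and 5 with the *HBD* upstream region (exact q = 0.000178). Its pairs with HS3, 5 and 13, did not pass the threshold (exact q = 0.116). Its 8 WT and 31 BCL11A KO pairs with an end in the upstream segment (exact q = 0.000178 as shares of 86 and 82) were all internal, so every contact of that segment with the LCR or the *HBD* upstream region came from the other baits.

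Overlap of single pairs between the libraries was counted for the members only, and the share over the whole locus was not computed. The libraries shared 5 identical pairs, 2.34% of the members in WT and 2.29% in BCL11A KO, of which 4 ran to the LCR and 1 to the *HBD* upstream region. Of the pairs of 0.5-kb bins, 41 were shared, 36.3% of the 113 WT and 41.4% of the 99 BCL11A KO bin pairs. The 187 pairs leaving the interval in WT had a median distance of 17.7 kb and the 174 in BCL11A KO one of 30.6 kb, with the longest at 39.1 and 45.9 kb. The authors' BF score was at its highest value of 150 for 196 members in WT (91.6%) and 207 in BCL11A KO (94.95%), so it hardly ranks them, and the lowest values were 22 and 83.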

How the data were processed

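The authors aligned CAPTURE-3C-seq reads to hg19 (Bowtie2 2.2.8 and Picard are named in the submitters' processing notes), merged 3 biological replicates per genotype and deposited, for each interaction, the positions of both ends and a BF score of at least 20 (MAXIM code). Each file holds 4 unnamed lists, assigned to the bait that held an end of 100% of their pairs. Ends were taken as 42 bp, which puts 286 of 3874 WT ends at GATC against at most 30 when shifted by up to 2 bp. Genes came from GENCODE v44 on GRCh37.

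Each distinct pair counted once. Regions were set as distances from start sites. Shares in WT and BCL11A KO were set against each other with Fisher's exact test (two-sided), adjusted by Benjamini-Hochberg over all combinations of the locus with at least 5 pairs, with Wilson and Newcombe 95% intervals. The floor was 3 pairs. Python 3.11.15, numpy 2.4.6 and scipy 1.17.1 were used, and the tests were tested on simulated data. Named ends were the most used of each segment and the most used partners. Members, regions and lists were chosen with earlier results of these data known. The single-replicate samples were not analysed here. Some sequences are not reported here.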

Additional observations from a re-analysis of the deposited data

How the results depend on the processing

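Values are BCL11A KO minus WT in percentage points unless stated. The shares of the *HBG* interval with the LCR and the *HBD* upstream region, and of *HBG2* with the *HBD* upstream region, kept direction and call under every setting run for them. Over the pairs leaving the interval, HS2 (7.18), HS4 (9.22) and upstream segment to LCR (29.9) passed the threshold and use of the upstream segment (10.99) lost it. Over all locus pairs, HS2 (0.747), HS4 (1.01), internal pairs (1.27) and upstream segment to LCR (1.61) passed, upstream segment to *HBD* upstream lost its call (-0.212), and HS1 (0.0131) and the use of *HBG1* (0.29) and *HBG2* (1.04) turned sign. With the highest score only, HS4 (9.39) and internal pairs (9.01) passed, and the ratio of LCR changes turned sign on the log2 scale for *HBG1* (-0.00453) and *HBG2* (-0.0871) against the upstream segment. Gained calls among the segment comparisons stand beside those results. In the *HBG* list only, HS3 (10.04), *HBG1* to LCR (16.9), *HBG2* to LCR (14.3) and upstream segment to *HBD* upstream (0) lost their calls, internal pairs passed (22.3) and *HBD* -1 kb turned (1.22). Without pairs found only in the LCR list, *HBG2* to LCR lost its call (16.87), internal pairs passed (26.5), and *HBG1*-*HBG2* pairs (1.39) and use of *HBG2* (14.001) turned. Without pairs found only in the *HBD* upstream list, *HBD* -1 kb (0.503) and upstream segment to LCR (-6.92) turned and upstream segment to *HBD* upstream was 0. With 0.5-kb bin pairs, *HBBP1*/*BGLT3* (-7.08), upstream segment to *HBD* upstream (-24.6) and use of the upstream segment (11.96) lost their calls, HS1 turned (0.626), and 36.3% of WT bin pairs were shared. Also with these bins, *HBG1* against *HBG2* turned for the WT LCR share (6.07) and, on the log2 scale, for the changes to the LCR (-0.0963) and to *HBD* upstream (0.435), as did *HBG1* against the upstream segment for the LCR (-0.0336). A site window of 0.5 times the width took the call from *HBD* -3.5 kb (-1.41), and one of 2 times the width gave it to HS4 (7.67). In 2-kb windows at the start sites, *HBG1* to LCR (12.4) and to *HBD* upstream (-11.5) lost their calls. There the LCR share of *HBG1* against *HBG2* turned in WT (27.8) and BCL11A KO (13.8) and that against the upstream segment in WT (6.52). The WT *HBD* upstream share turned for *HBG1* against *HBG2* (-14.4), *HBG1* against upstream (-8.88) and *HBG2* against upstream (5.48), and the log2 change to the LCR for *HBG1* against *HBG2* (-1.68) and upstream (-0.650). Without ends within 2 mismatches of a copy, a setting chosen after seeing the data, *HBBP1*/*BGLT3* (-3.18) and *HBG2* to LCR (18.8) lost their calls, internal pairs passed (9.11), and the log2 change turned for *HBG2* against upstream at the LCR (-0.477) and *HBG1* against *HBG2* at *HBD* upstream (0.241). Where a setting only leaves out pairs or merges them, fewer counts remained. The cause of lost, gained or turned results was not tested under any setting.

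No paired analysis was possible because the lists used here hold each genotype's 3 replicates merged, and no fit that leaves out a replicate was run. The floor of 3 pairs is 1.38% of the BCL11A KO members, and the effect of depth was not tested.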
